A study of Mus musculus with 180 samples.

Results

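Brown fat burns fuel to make heat, and a small set of genes carries out or steers that process. The genes described here are 9 named members of this thermogenic programme: Ucp1, Adrb3, Dio2, Ppargc1a, Cidea, Elovl3, Otop1, Kng2 and Prdm16. They were chosen as a list of symbols, and 8 of the 9 were among the 13820 genes measured. Prdm16, a transcription factor of brown adipocytes, was not analysed here. The values come from 180 RNA libraries, 1 from each of 15 tissues of 12 mice, all female and 6 weeks old, perfused with PBS and EDTA and sampled at 12 hours. The TNFKO LPS group held 4 B6.129S-Tnftm1Gkl/J mice (mice 9 to 12), which carry a disrupted Tnf gene in every cell, given 5 mg/kg lipopolysaccharide (LPS). The LPS group held 4 C57BL/6J mice (mice 5 to 8) given the same dose, and the PBS group held 4 C57BL/6J mice (mice 1 to 4) given PBS. LPS comes from the outer membrane of Gram-negative bacteria and sets off an innate immune response, in which tumour necrosis factor (TNF) is an early cytokine. There was no group of TNFKO mice on PBS. What the allele or its strain background does without LPS, and what it does to the LPS response, therefore cannot be told apart. Each value is the authors' deposited signal, a number per library scaled to an effective library size.

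In brown adipocytes, noradrenaline from sympathetic nerves acts on the beta-3 adrenergic receptor (Adrb3) and raises cAMP, which releases fatty acids and switches on thermogenic genes. Dio2 encodes the deiodinase that makes active thyroid hormone inside the cell, and Ppargc1a (PGC-1 alpha) is a transcriptional co-activator of mitochondrial and thermogenic genes. Ucp1 is the uncoupling protein of the inner mitochondrial membrane that lets protons back in and gives off heat. Cidea sits on lipid droplets, Elovl3 lengthens very long chain fatty acids, Otop1 is a proton channel, and Kng2 is 1 of the mouse kininogen genes, the precursors of bradykinin.

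In GRCm38 (mm10), by the GENCODE M21 annotation, all members printed here are protein-coding genes. Ucp1 lies on the + strand at chr8:83290352-83298452 and Adrb3 on the - strand of the same chromosome at chr8:27225776-27250616. Otop1 (+ strand, chr5:38275972-38304217) and Ppargc1a (- strand, chr5:51454250-51567726) share chromosome 5. Dio2 lies at chr12:90724552-90738438 (- strand), Elovl3 at chr19:46131897-46135694 (+ strand) and Kng2 at chr16:22985854-23029482 (- strand). The 300 bases around the RefSeq start sites (250 before, 50 after, GRCm38.p6) are given here for Ucp1, Dio2, Ppargc1a and Otop1, because these members were lower together in brown fat of LPS mice. Capitals mark matches on either strand to TGACG, the half-site of the cAMP response element, to AGGTCA, a nuclear receptor half-site, and to TTGCNNAA, a C/EBP-type motif.
Ucp1 (chr8:83290098-83290397, + strand): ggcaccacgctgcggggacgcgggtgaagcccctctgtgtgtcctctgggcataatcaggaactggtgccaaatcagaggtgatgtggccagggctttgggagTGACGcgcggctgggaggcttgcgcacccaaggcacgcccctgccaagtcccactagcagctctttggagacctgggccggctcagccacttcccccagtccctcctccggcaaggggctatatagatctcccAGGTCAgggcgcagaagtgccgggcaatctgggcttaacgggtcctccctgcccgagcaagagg
Dio2 (chr12:90738989-90739288, - strand): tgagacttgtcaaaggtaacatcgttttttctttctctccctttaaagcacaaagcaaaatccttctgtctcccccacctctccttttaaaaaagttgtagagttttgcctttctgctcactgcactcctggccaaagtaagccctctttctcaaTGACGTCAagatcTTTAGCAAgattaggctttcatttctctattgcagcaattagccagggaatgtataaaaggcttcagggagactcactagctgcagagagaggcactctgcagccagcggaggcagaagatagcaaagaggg
Ppargc1a (chr5:51567676-51567975, - strand): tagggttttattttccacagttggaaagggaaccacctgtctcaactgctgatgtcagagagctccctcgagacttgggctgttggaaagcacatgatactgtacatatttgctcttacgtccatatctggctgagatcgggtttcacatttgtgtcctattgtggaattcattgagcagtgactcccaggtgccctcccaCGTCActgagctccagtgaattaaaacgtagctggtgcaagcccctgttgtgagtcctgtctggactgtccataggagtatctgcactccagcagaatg
Otop1 (chr5:38277154-38277453, + strand): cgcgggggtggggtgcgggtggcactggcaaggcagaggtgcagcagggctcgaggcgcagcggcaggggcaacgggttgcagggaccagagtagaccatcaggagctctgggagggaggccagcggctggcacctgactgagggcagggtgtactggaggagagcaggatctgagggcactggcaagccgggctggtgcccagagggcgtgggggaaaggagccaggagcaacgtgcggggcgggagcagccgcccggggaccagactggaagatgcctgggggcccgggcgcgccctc
The Dio2 window held the full palindrome TGACGTCA, at -95 relative to the RefSeq start, in which a TGACG match on each strand overlap, and a TTGCNNAA match at -82. Ucp1 had TGACG at -147 and AGGTCA at -14, and Ppargc1a had TGACG, as its reverse complement, at -49. None of these letters matched in the Otop1 window. The window of Kng2, which was higher with LPS in brown fat and is not printed, held AGGTCA at -56 and TTGCNNAA at -112. Any part of these motifs in the changes was not tested. Of 32851 RefSeq windows of the same length, 1.79% held TGACGTCA, 20.8% TGACG, 16.3% AGGTCA and 10.8% TTGCNNAA, so all but the full palindrome are common. The RefSeq start of Dio2 lies outside the GENCODE gene given above, and that of Otop1 inside it.

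Before any treatment comparison, brown fat of PBS mice had the highest mean signal of the 15 tissues for 6 of the 8 members. Ucp1 averaged 10352 ± 2275 in brown fat of PBS mice (SD, n = 4, as for every ± below unless an SE is named), and the next tissue, kidney, averaged 79.6 ± 8.27. In the 13 tissues other than the 2 fats, Ucp1 stood at 0.209% to 0.769% of the brown fat mean in PBS mice. Cidea averaged 1410.0 ± 294 and Otop1 201 ± 51.8 in brown fat, against 33.5 ± 16.4 and 6.23 ± 3.12 in white fat, the next tissue for both. The ranges of brown fat and the next tissue did not overlap for Ucp1, Cidea, Otop1, Adrb3 and Elovl3, and overlapped for Dio2 (brown fat 83.8 ± 38.7, brain 34.9 ± 8.70). Adrb3 was the member least confined to brown fat among these, with 204 ± 37.7 in brown fat and 106 ± 12.7 in white fat, or 52.1% of the brown fat level. Ppargc1a and Kng2 had their highest levels elsewhere. Ppargc1a averaged 141 ± 37.5 in heart, 101 ± 10.3 in kidney, 77.6 ± 2.00 in small intestine and 70.1 ± 8.64 in muscle, and brown fat ranked sixth with 46.8 ± 22.8. Kng2 averaged 415 ± 37.5 in liver, 309 ± 26.5 in kidney and 51.7 ± 2.06 in brown fat. These are levels per library of 3' tags, in which transcript length does not enter.

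Total counts per library were 311128 to 1342177 in brown fat, where 1 count stood for a signal of 0.905 to 3.6, and 537156 to 1230206 in white fat, where 1 count stood for 0.705 to 1.64. The lowest total of all was the brown fat library of PBS mouse 1. The deleted gene itself, Tnf, did not read as absent in the TNFKO libraries: its signal was 16.0 to 22.3 in brown fat of TNFKO LPS mice, 7.61 to 15.5 in LPS mice and 3.68 to 7.21 in PBS mice. Tags at the 3' end of the transcript do not check this allele, because the labels do not say which part of the gene was removed. The brown fat libraries also held skeletal muscle RNA in unequal amounts. The summed signal of 14 muscle fibre markers reached 0.791% to 3.70% of its level in muscle of PBS mice in TNFKO LPS brown fat, 1.38% to 5.96% in LPS brown fat and 0.797% to 2.04% in PBS brown fat. The 2 highest were LPS mice 7 (5.93%) and 8 (5.96%), so results that rest on these libraries are given with and without them. The general adipocyte sum (15 markers, none at 0 in any group) ran from 33087 to 39855 in TNFKO LPS, 24889 to 33185 in LPS and 31128 to 48304 in PBS brown fat.

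In brown fat, most of the programme was lower with LPS. Of the 8 members, 6 were lower in LPS mice than in PBS mice (Adrb3, Otop1, Dio2, Ppargc1a, Ucp1 and Cidea), 1 was higher (Kng2) and Elovl3 did not pass. The test was limma on log2(signal + 1) with Benjamini-Hochberg adjustment over all 13551 genes tested, at an adjusted p of 0.05, and 2490 genes (18.4%) passed it, 9.28% of all genes lower and 9.09% higher. The largest falls were in Otop1 (5.58-fold), Dio2 (5.33-fold) and Adrb3 (4.24-fold), and Ucp1 fell 2.26-fold.

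Otop1, the proton channel, had signals of 34.9, 50.7, 26.1 and 29.9 in LPS mice 5 to 8, against 159, 167, 272 and 205 in PBS mice 1 to 4. The groups did not overlap. The log2 change was -2.48 (SE 0.23, limma adjusted p 5.63e-08). Adrb3, the receptor, had 36.1, 63.4, 48.7 and 42.5 in LPS mice, against 213, 150.2, 215 and 238 in PBS mice. Again the groups stood apart, with a log2 change of -2.08 (SE 0.16, limma adjusted p 6.72e-09).

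Dio2, the deiodinase, had 12.5, 20.3, 7.13 and 18.1 in LPS mice, against 39.6, 124, 107 and 64.5 in PBS mice. The groups did not overlap, although the values rest on 6 to 20 counts in an LPS library and 11 to 106 in a PBS library. The log2 change was -2.41 (SE 0.42, limma adjusted p 0.000219). Ppargc1a, the co-activator, had 17.5, 24.1, 10.7 and 14.5 in LPS mice, against 32.4, 79.8, 44.1 and 30.9 in PBS mice, and all LPS libraries lay below all PBS libraries. Its log2 change of -1.38 (SE 0.33, limma adjusted p 0.00415) became -1.04 (adjusted p 0.0900) without LPS mice 7 and 8. Cidea, the lipid droplet protein, had 605, 642, 751 and 567 in LPS mice, against 998, 1477, 1698 and 1467 in PBS mice. The groups did not overlap, and the log2 change of -1.12 had the smallest SE of the 8 members (0.14, limma adjusted p 4e-06).

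Ucp1 was the one member that fell whose LPS and PBS groups overlapped. It had 6102, 8829, 2407 and 3108 in LPS mice 5 to 8, against 7158, 10362, 12298 and 11592 in PBS mice. LPS mouse 6 lay within the PBS range, and the 2 lowest libraries were those of mice 7 and 8, which carried the most muscle RNA. The log2 change was -1.18 (SE 0.29, limma adjusted p 0.00628) with all mice and -0.47 (adjusted p 0.266) without mice 7 and 8. The part of muscle RNA in this value was not tested further.

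Kng2 and Elovl3 went the other way or stayed unresolved. Kng2 had 103, 88.8, 70.1 and 63.4 in LPS mice, against a narrow 54.1, 51.6, 49.0 and 51.9 in PBS mice, and the groups did not overlap. Its log2 change was +0.62 (SE 0.16, limma adjusted p 0.00837). Up to 32.6% of the 50-base words in the last 500 bases of a Kng2 transcript also occur in the neighbouring paralog Kng1, so reads of the 2 genes may be confused and the Kng2 values are uncertain. Kng1 itself, at 21.6 in LPS and 18.1 in PBS brown fat, did not pass (log2 0.28, limma adjusted p 0.571). Elovl3 had 203, 294, 89.1 and 129 in LPS mice, against 54.1, 84.5, 145 and 122 in PBS mice. The groups overlapped (log2 0.77, SE 0.30, limma adjusted p 0.0785). DESeq2 did not call the difference either (adjusted p 0.146), edgeR did (adjusted p 0.0318), and without mice 7 and 8 the difference was 1.36 with an adjusted p of 0.00227.

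**Figure D1:**
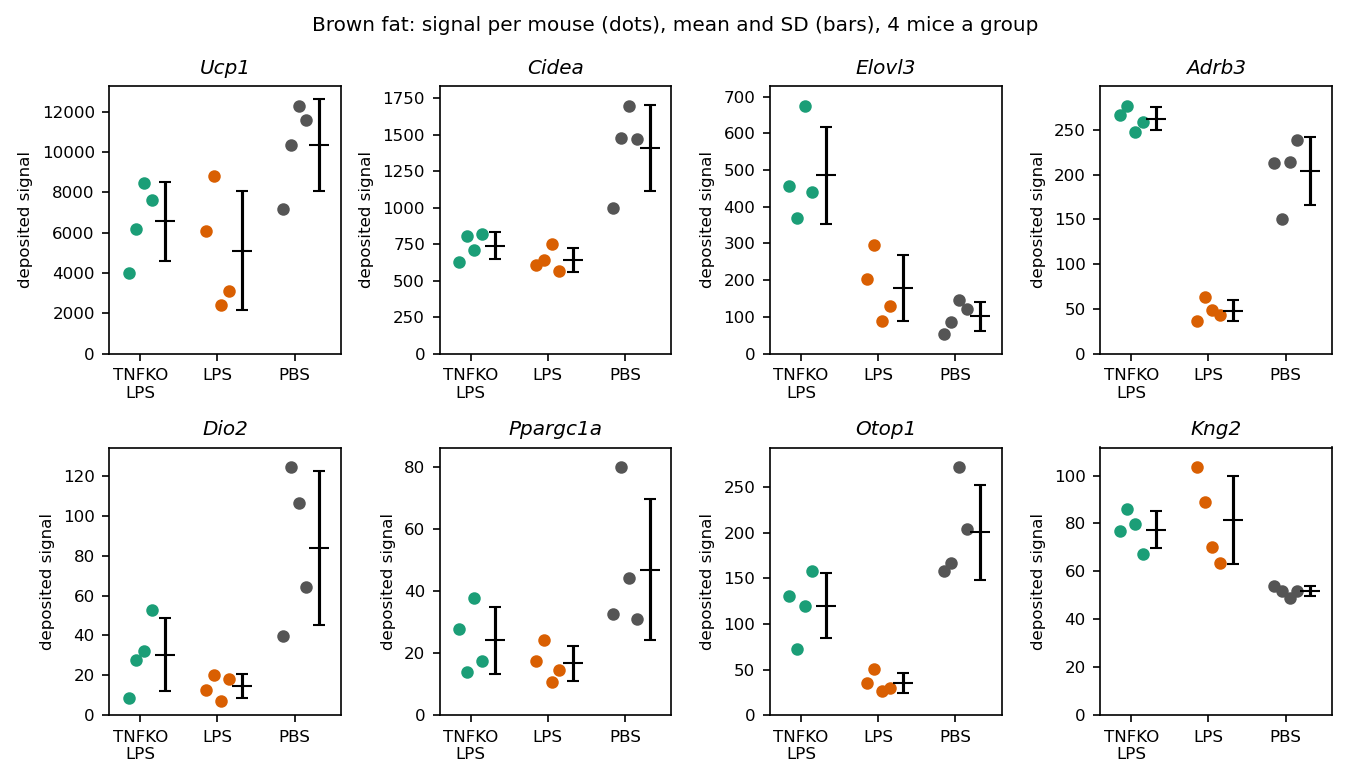
Deposited signal (vertical axes, linear, from 0) of the 8 members in brown fat of TNFKO LPS, LPS and PBS mice; dots are single mice and the bars beside them the mean and SD of 4. Adrb3 in TNFKO LPS mice (247 to 277) lies above every LPS and PBS library, while Cidea in TNFKO LPS mice (626 to 821) lies below every PBS library.

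In TNFKO mice given LPS, some members stood above their level in LPS mice and others did not differ detectably from it. Between TNFKO LPS and LPS mice, 3 of the 8 members passed in brown fat, all higher in TNFKO LPS mice: Adrb3, Otop1 and Elovl3. In that comparison 398 of 13551 genes (2.94%) passed, 1.7% higher and 1.23% lower. The other 5 members, Ucp1, Dio2, Ppargc1a, Cidea and Kng2, did not pass.

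Adrb3 had 267, 277, 247 and 259 in TNFKO LPS mice 9 to 12, against 36.1, 63.4, 48.7 and 42.5 in LPS mice. The groups were far apart, with a 5.52-fold higher level in TNFKO LPS mice (log2 2.47, SE 0.16, limma adjusted p 9.63e-09). All 4 TNFKO LPS values also lay above the 4 PBS values (150.2 to 238), a difference of 0.38 on the log2 scale that did not pass (SE 0.16, limma adjusted p 0.160).

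Otop1 had 131, 72.2, 119 and 159 in TNFKO LPS mice, against 26.1 to 50.7 in LPS mice, without overlap. It was 3.3-fold higher (log2 1.72, SE 0.23, limma adjusted p 0.000108) and remained below PBS mice by 0.76 on the log2 scale (SE 0.23, adjusted p 0.0352). That second difference no longer passed when any 1 of mice 3, 4, 9, 10 or 11 was left out (highest adjusted p 0.163).

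Elovl3, the fatty acid elongase, had 457, 369, 675 and 441 in TNFKO LPS mice, against 89.1 to 294 in LPS mice and 54.1 to 145 in PBS mice. It was higher than in either other group in all 4 libraries. The log2 difference was 1.54 against LPS mice (SE 0.30, limma adjusted p 0.00429), which became 0.95 (adjusted p 0.176) without LPS mice 7 and 8. Against PBS mice it was 2.31 (SE 0.30, adjusted p 9.82e-06), or 4.95-fold, and this held in every alternative tried.

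Dio2 had 8.71, 27.6, 32.3 and 52.9 in TNFKO LPS mice, which overlapped both LPS mice (7.13 to 20.3) and PBS mice (39.6 to 124). The log2 difference was 0.87 against LPS mice (SE 0.42, limma adjusted p 0.351) and -1.54 against PBS mice (SE 0.42, adjusted p 0.0193). The call against PBS mice was lost without mouse 2, 3 or 9 (highest adjusted p 0.0879). Cidea had 626, 803, 710.2 and 821 in TNFKO LPS mice, against 567 to 751 in LPS mice and 998 to 1698 in PBS mice. It differed from LPS mice by 0.21 (SE 0.14, adjusted p 0.572) and from PBS mice by -0.91 (SE 0.14, adjusted p 8.57e-05).

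Ucp1 had 3975, 6179.6, 8477 and 7618 in TNFKO LPS mice, against 2407 to 8829 in LPS mice and 7158 to 12298 in PBS mice. Its log2 difference of 0.49 from LPS mice (SE 0.29, limma adjusted p 0.497) was -0.22 without LPS mice 7 and 8, and that of -0.68 from PBS mice did not pass either (SE 0.29, adjusted p 0.172). Ppargc1a had 27.6, 13.8, 37.7 and 17.3 in TNFKO LPS mice and overlapped both other groups, at 0.46 against LPS mice (SE 0.33, adjusted p 0.600) and -0.92 against PBS mice (SE 0.33, adjusted p 0.0831). Against PBS mice, edgeR and DESeq2 did call this last difference (adjusted p 0.0184 and 0.0465). Kng2 stayed at 67.2 to 86.0 in TNFKO LPS mice, -0.05 from LPS mice (SE 0.16, adjusted p 0.944) and 0.57 above PBS mice (SE 0.16, adjusted p 0.0246). This last call was lost when mouse 2, 3, 4, 9, 10 or 11 was left out (highest adjusted p 0.0884). Over all members, 5 of 8 passed between TNFKO LPS and PBS mice (Dio2, Cidea and Otop1 lower, Elovl3 and Kng2 higher), where 10.1% of genes did. The comparisons share mice, so they are not independent of each other.

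Other genes of the heat-producing programme give the setting. The lists below were compiled from general knowledge, but with earlier results of these data known, so their counts are descriptive. Each is read against the median of all genes tested, 0.06 on the log2 scale for LPS against PBS and -0.02 for TNFKO LPS against LPS in brown fat. Among 19 genes of adrenergic input, cAMP and lipolysis, 9 were lower and 3 higher in LPS than in PBS mice, with a median log2 change of -0.50 (6 and 0 without mice 7 and 8). Prkar2b and Prkaca, a regulatory and a catalytic subunit of protein kinase A, fell by 2.46 (SE 0.13, limma adjusted p 1.09e-11) and 1.65 (SE 0.13, adjusted p 1.16e-08). Of the same 19 genes, 4 were higher and 0 lower in TNFKO LPS than in LPS mice, among them Prkar2b (289 ± 37.9 against 138 ± 18.8) and Plin1, the lipid droplet coat protein (480 ± 39.8 against 253 ± 111). Without mice 7 and 8 only 1 of these 4 calls was made, and Plin1 had an adjusted p of 0.0642.

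Among 21 transcription factors and co-regulators of brown adipocytes, 8 were lower and 1 higher in LPS than in PBS mice (median -0.44; 6 and 0 without mice 7 and 8). Ppargc1b, the paralog of Ppargc1a, fell by 2.76 (SE 0.43, limma adjusted p 6.42e-05), Cebpa by 2.43 (SE 0.19, adjusted p 1.09e-08), Ppara by 2.26 (SE 0.42, adjusted p 0.000467) and Esrra by 1.65 (SE 0.23, adjusted p 1.99e-05). Between TNFKO LPS and LPS mice 3 were higher and 0 lower, led by Cebpa at 104 ± 21.8 against 32.7 ± 6.80 (log2 1.64, SE 0.19, adjusted p 3.9e-05). Irf4 was higher by 1.26 (adjusted p 0.0245), a call lost without mice 7 and 8 (adjusted p 0.259), when 1 of the 3 remained. Of 20 other genes typical of brown fat, 12 were lower and 1 higher in LPS than in PBS mice (median -0.89). Over the alternatives, the fit without mice 7 and 8 among them, 11 to 14 were lower and 1 to 2 higher. The gene that rose in the main fit was Fgf21, an endocrine factor, at 26.6 ± 19.0 in LPS and 1.24 ± 0.964 in PBS mice (log2 3.31, SE 0.61, adjusted p 0.000375). Fgf21 was 3.5 ± 1.98 in TNFKO LPS mice, lower than in LPS mice by 2.30 on the log2 scale (adjusted p 0.0404). Kcnk3, a potassium channel, went the other way, at 270.1 ± 61.8 in TNFKO LPS and 102 ± 48.8 in LPS mice (log2 1.48, SE 0.23, adjusted p 0.000561). Between TNFKO LPS and LPS mice 4 of these 20 genes were higher and 2 lower, and 2 to 5 and 1 to 2 over the alternatives.

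Fuel and electron transport genes fell broadly with LPS. Of 20 fatty acid oxidation genes 16 were lower and 0 higher (median -0.65), of 17 fatty acid and triglyceride synthesis genes 12 were lower and 0 higher (median -1.03), and of 19 respiratory chain genes 17 were lower and 0 higher (median -0.48). Acsl1, which activates fatty acids, was 482 ± 229 in LPS and 1699.6 ± 423 in PBS mice, and Thrsp, a lipogenic regulator, 226 ± 95.8 in LPS and 2180.5 ± 475 in PBS mice. The falls in the respiratory chain were small, with the largest in Uqcrfs1, the Rieske protein of complex III, at 0.75 on the log2 scale (SE 0.10, limma adjusted p 9.5e-06). Without mice 7 and 8 the counts were 14 of 20, 11 of 17 and 9 of 19. Between TNFKO LPS and LPS mice Acsl1 was higher by 1.73 (SE 0.25, adjusted p 0.000198), as 1 of 3 oxidation genes that passed, of which 1 was called without mice 7 and 8. None of the 19 respiratory chain genes passed limma there, although 2 had an unadjusted p under 0.05 and edgeR and DESeq2 called 1 each. Against PBS mice, 10 of these 19 were lower in TNFKO LPS mice.

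Of 15 general adipocyte genes 10 were lower and 1 higher in LPS than in PBS brown fat (median -0.64; 7 and 0 without mice 7 and 8), and 6 were higher and 1 lower in TNFKO LPS than in LPS mice (1 and 0 without mice 7 and 8). Of 14 muscle fibre genes 10 were higher in LPS than in PBS mice and 0 lower (median 1.37), and 0 passed without mice 7 and 8 (median 0.54). In the list for creatine and calcium cycling, the 3 genes that passed, Atp2a1, Ckm and Ryr1, are all genes of muscle fibres, and 0 passed without mice 7 and 8. None of 14 muscle genes passed limma between TNFKO LPS and LPS mice, though 13 had an unadjusted p under 0.05, and edgeR called 7 and DESeq2 2. Macrophage and neutrophil genes passed for 4 of 12, all higher in LPS mice (Cd14, Cd68, S100a8 and S100a9), and endothelial genes for 2 of 10, near the 18.4% of all genes. Of the other cell type lists, 1 of 10 fibroblast and 1 of 8 hepatocyte genes passed, both higher in LPS mice, and 0 of 10 lymphocyte, 0 of 7 epithelial and 0 of 5 sympathetic nerve genes. In whole tissue, fewer cells of a type and less RNA of a gene per cell cannot be told apart.

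**Figure D2:**
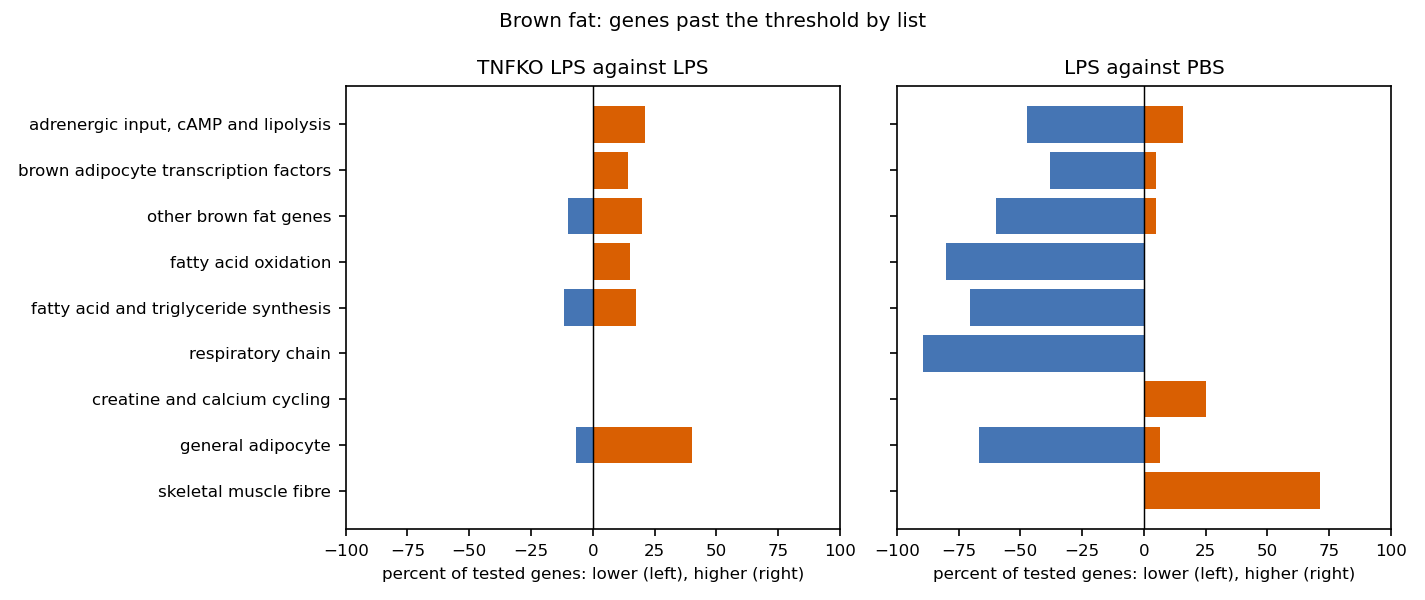
Percent of tested genes per list (horizontal axis) that passed in brown fat, lower to the left and higher to the right of 0, for TNFKO LPS against LPS and for LPS against PBS. For LPS against PBS, 17 of 19 respiratory chain genes were lower and 10 of 14 muscle fibre genes higher.

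In white fat of the same mice, only Adrb3 passed among the 8 members between LPS and PBS mice, where 1861 of 13546 genes (13.7%) did. Adrb3 had 13.8, 20.5, 11.4 and 4.27 in LPS mice, against 107, 123, 102 and 93.3 in PBS mice. The groups stood far apart, and the fall of 8.88-fold (log2 -3.15, SE 0.29, limma adjusted p 3.29e-08) held in every alternative tried. The thermogenic genes that fell in brown fat were at low levels in white fat: Ucp1 averaged 62.1 ± 25.8 in LPS and 69.4 ± 36.8 in PBS mice, and Cidea 28.5 ± 9.89 in LPS and 33.5 ± 16.4 in PBS mice. Neither passed (limma adjusted p 0.898 for Ucp1 and 0.890 for Cidea), nor did Dio2 (7.22 ± 3.82 in LPS, 4.61 ± 3.71 in PBS mice, adjusted p 0.391). Otop1 averaged 1.80 ± 1.03 in LPS and 6.23 ± 3.12 in PBS mice, on 1 to 10 counts a library (log2 -1.32, SE 0.48, adjusted p 0.0692). None of the 19 respiratory chain genes passed in white fat, with limma, edgeR or DESeq2, nor had any an unadjusted p under 0.05. Of 17 fatty acid and triglyceride synthesis genes 8 were lower and 1 higher in LPS than in PBS white fat (median log2 change -0.60), and of 15 general adipocyte genes 7 were lower and 1 higher (median -0.39). Of 19 genes of adrenergic input, cAMP and lipolysis 6 were lower and 4 higher (median -0.27). In the fit without mice 7 and 8, 4 synthesis genes were lower and 0 higher, 6 general adipocyte genes lower and 1 higher, and 4 adrenergic genes lower and 2 higher. Of 10 fibroblast genes 6 were lower and 0 higher, with and without those mice.

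In white fat of TNFKO LPS mice, 3 members were higher than in LPS mice, in a comparison where 387 genes (2.86%) passed. Adrb3 had 66.2, 40.8, 85.9 and 54.8 in TNFKO LPS mice, against 4.27 to 20.5 in LPS mice, without overlap (log2 2.34, SE 0.29, limma adjusted p 6.38e-05). Unlike in brown fat, all 4 TNFKO LPS values stayed below all 4 PBS values (93.3 to 123), a difference of -0.81 that did not pass (SE 0.29, adjusted p 0.0976) but was called by edgeR (adjusted p 0.0177) and DESeq2 (adjusted p 0.0287). Ucp1 had 134, 121, 344 and 81.4 in TNFKO LPS mice, against 42.4, 97.0, 66.1 and 42.7 in LPS mice and 44.3, 76.2, 119 and 38.5 in PBS mice. Mouse 11 stood highest, and mouse 12 lay within the range of both other groups. Elovl3 had 22.1, 10.4, 41.6 and 12.5 in TNFKO LPS mice, against 6.46, 8.63, 4.13 and 1.07 in LPS mice and 1.64, 2.82, 2.28 and 0 in PBS mice. All TNFKO LPS libraries lay above all others for Elovl3.

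Against LPS mice these differences were 1.31 for Ucp1 (SE 0.35, limma adjusted p 0.0397) and 1.91 for Elovl3 (SE 0.52, adjusted p 0.0459), and neither call was firm. Both were lost with a pseudocount of 0.25, with no filter, without mice 7 and 8 together and without mouse 5, 7, 8, 9 or 11, that of Ucp1 also with DESeq2 and that of Elovl3 also without mouse 12 (highest adjusted p 0.403 for Ucp1 and 0.557 for Elovl3). Against PBS mice they were 1.21 for Ucp1 (SE 0.35, adjusted p 0.0298; lost with DESeq2 and without mouse 1, 4 or 11, highest adjusted p 0.141) and 3.04 for Elovl3 (SE 0.52, adjusted p 0.000276), which held in every alternative. These were the 2 of 8 members called between TNFKO LPS and PBS mice, where 8.23% of genes were. White fat of TNFKO LPS mice varied in make-up: the lymphocyte marker sum of mouse 10 was 640.4, against 143 to 213 in the other 3, and the general adipocyte sums were 18573 to 32872 in TNFKO LPS, 32710 to 36691 in LPS and 33500 to 55986 in PBS mice. The fibroblast sum was 2765 to 5728 in TNFKO LPS, 2911 to 5328 in LPS and 6753 to 8038 in PBS mice, and the epithelial sum 574 to 984 in TNFKO LPS, 608 to 764 in LPS and 1349 to 1673 in PBS mice. Between TNFKO LPS and PBS mice 7 of 10 fibroblast and 6 of 7 epithelial genes were lower and 0 higher. The part of these cell types in the white fat differences was not tested.

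**Figure D3:**
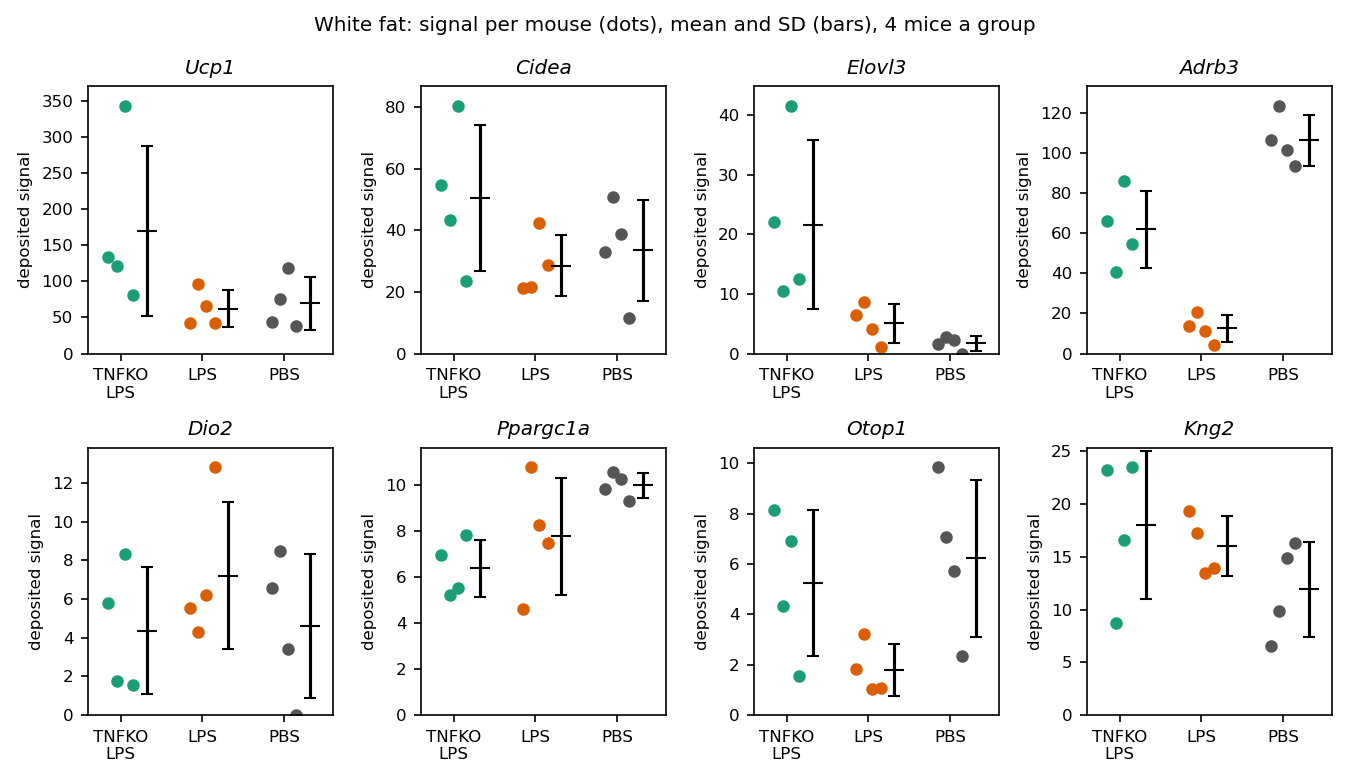
Deposited signal (vertical axes, linear, from 0) of the 8 members in white fat of TNFKO LPS, LPS and PBS mice; dots are single mice and bars the mean and SD of 4. Adrb3 runs from 40.8 to 85.9 in TNFKO LPS, 4.27 to 20.5 in LPS and 93.3 to 123 in PBS mice, and Ucp1 of TNFKO LPS mouse 11 (344) stands apart.

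Whether the 2 fats responded differently was tested on the difference itself, in a joint fit of their 24 libraries. For LPS against PBS, 1 of the 8 members differed between brown and white fat, where 4.11% of 13748 genes did. This was Dio2, whose change was lower in brown fat than in white fat by 3.28 on the log2 scale (difference -3.28, SE 0.78, limma adjusted p 0.0110). The call was lost without LPS mice 7 and 8 (difference -2.68, adjusted p 0.215). The fall of Adrb3 was smaller in brown fat by 1.07 (SE 0.36, adjusted p 0.0949), and with mouse as a replicate block, which uses that both fats came from the same mice, this difference passed (adjusted p 0.0384). For Ucp1 the difference was -1.08 (SE 0.51, adjusted p 0.289), for Cidea -1.01 (SE 0.42, adjusted p 0.197) and for Otop1 -1.16 (SE 0.50, adjusted p 0.227). So a difference between the fats in these 3 genes was not resolved. For TNFKO LPS against LPS, no member differed between the fats with limma (0.204% of genes did), 1 had an unadjusted p under 0.05, and edgeR called 0.

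**Figure D4:**
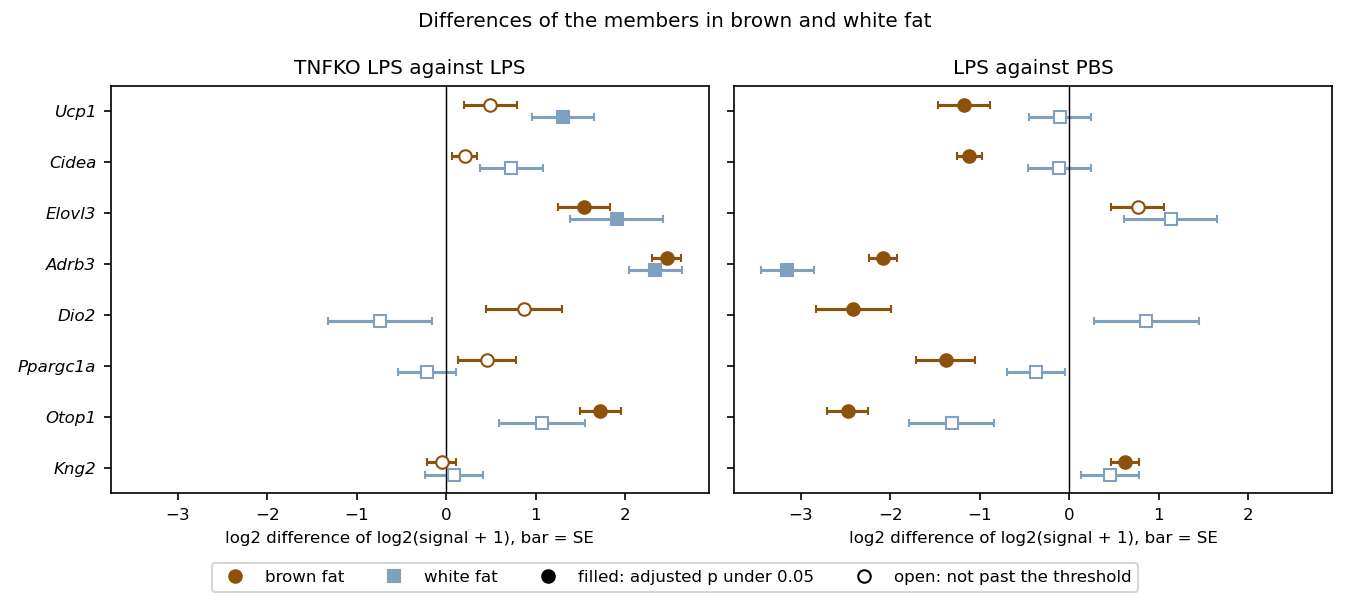
Log2 differences of the 8 members (horizontal axis, log2(signal + 1) scale, bars are the SE) in brown and white fat for TNFKO LPS against LPS and LPS against PBS; filled symbols passed limma at an adjusted p of 0.05. Adrb3 lies at 2.47 and 2.34 in brown and white fat for TNFKO LPS against LPS, and at -2.08 and -3.15 for LPS against PBS.

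Outside fat, Dio2 moved in the opposite direction in some tissues. It was higher in LPS than in PBS mice in 5 of the 13 other tissues (lung, kidney, muscle, skin and brain), and in those 5 it was also lower in TNFKO LPS than in LPS mice. These comparisons share the LPS mice, and the 5 tissues came from the same mice, so they are not separate observations. LPS mouse 7 had the highest Dio2 of its group in lung, kidney, muscle and skin. Across the 13 tissues, 1.02% to 20% of genes passed between TNFKO LPS and LPS mice, 4.35% to 38% between LPS and PBS mice, and 2.27% to 20.9% between TNFKO LPS and PBS mice. In lung, where 25.6% of genes passed between LPS and PBS mice and 5.99% between TNFKO LPS and LPS mice, Dio2 was the only member called. It had 13.7, 11.4, 5.59 and 3.98 in TNFKO LPS mice, 83.6, 19.0, 155 and 118 in LPS mice and 1.67, 3.16, 4.50 and 2.42 in PBS mice. Every LPS library was above every other library. The change was 4.30 on the log2 scale for LPS against PBS (SE 0.44, limma adjusted p 1.42e-08) and -3.09 for TNFKO LPS against LPS (SE 0.44, adjusted p 6.1e-05), and both held in every alternative. At 94.1 ± 58.0, the lung of LPS mice held 649% of the Dio2 signal of their brown fat (14.5 ± 5.92).

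In muscle, Dio2 averaged 3.69 ± 1.95 in TNFKO LPS, 18.3 ± 9.80 in LPS and 5.97 ± 3.27 in PBS mice, with a difference of -2.0 between TNFKO LPS and LPS mice (SE 0.46, limma adjusted p 0.00680; 3.97% of genes passed) and of 1.43 between LPS and PBS mice (SE 0.46, adjusted p 0.0346; 12.5% passed). In kidney it averaged 3.80 ± 2.17 in TNFKO LPS, 12.3 ± 7.80 in LPS and 3.70 ± 1.92 in PBS mice. In brain, where 1.02% of genes passed between TNFKO LPS and LPS mice and 4.35% between LPS and PBS mice, it averaged 31.7 ± 2.78 in TNFKO LPS, 53.7 ± 12.0 in LPS and 34.9 ± 8.70 in PBS mice. In skin, where 2.8% and 17.9% of genes passed in those comparisons, it averaged 3.53 ± 1.40 in TNFKO LPS, 10.9 ± 6.40 in LPS and 4.24 ± 0.721 in PBS mice. Dio2 had 1 to 25 counts a library in muscle, 2 to 28 in kidney and 3 to 41 in skin. All 8 calls in muscle, kidney, brain and skin were lost without LPS mice 7 and 8 (adjusted p 0.0787 to 0.585). These mice were singled out by muscle RNA in their brown fat libraries, not by anything in these tissues. In LPS mice 5 to 8, Dio2 had 8.67, 3.20, 20.5 and 16.6 in kidney, and 5.72, 5.89, 19.1 and 12.96 in skin. Without mice 7 and 8 the log2 change with LPS fell from 1.35 to 0.54 in kidney and from 1.04 to 0.39 in skin. It fell from 1.43 to 0.99 in muscle and rose from 0.62 to 0.79 in brain. The fit without mice 7 and 8 also has fewer LPS mice, and the reason for the loss was not tested. The skin calls were also lost with a pseudocount of 0.25 and with a fixed sum per library, and the one between TNFKO LPS and LPS mice with no filter and with the 2 groups fitted alone. A fit of the 2 groups alone ended the brain call between TNFKO LPS and LPS mice, and a pseudocount of 0.25 the muscle call between LPS and PBS mice (adjusted p 0.0535 to 0.0860 in all these cases). DESeq2 gave no adjusted p for muscle between TNFKO LPS and LPS mice. Leaving out a single mouse also ended calls between TNFKO LPS and LPS mice (mice 7 to 11 in kidney, 7 in muscle, 7, 8, 9, 10 and 12 in skin, and 5, 7, 8, 11 and 12 in brain) and between LPS and PBS mice (4, 7 and 8 in kidney, 1, 4, 5, 7 and 8 in muscle, 1 to 4, 7 and 8 in skin, and 1, 4 and 5 in brain). The change of Dio2 with LPS in brown fat differed from that in each of these tissues, by -6.72 against lung (SE 0.69, limma adjusted p 2.05e-08) and by -3.04 to -3.84 against brain, skin, kidney and muscle (adjusted p 0.000127 to 0.000329). Of all genes, 10.1% passed this test against lung, 9.76% against brain, 9.43% against skin, 12.9% against kidney and 6.31% against muscle. These pairs were chosen after opposite calls were seen in the same libraries, so a pass was likely beforehand and adds no support. All 5 differences kept their call without mice 7 and 8, where only the lung rise of Dio2 was still called.

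**Figure D5:**
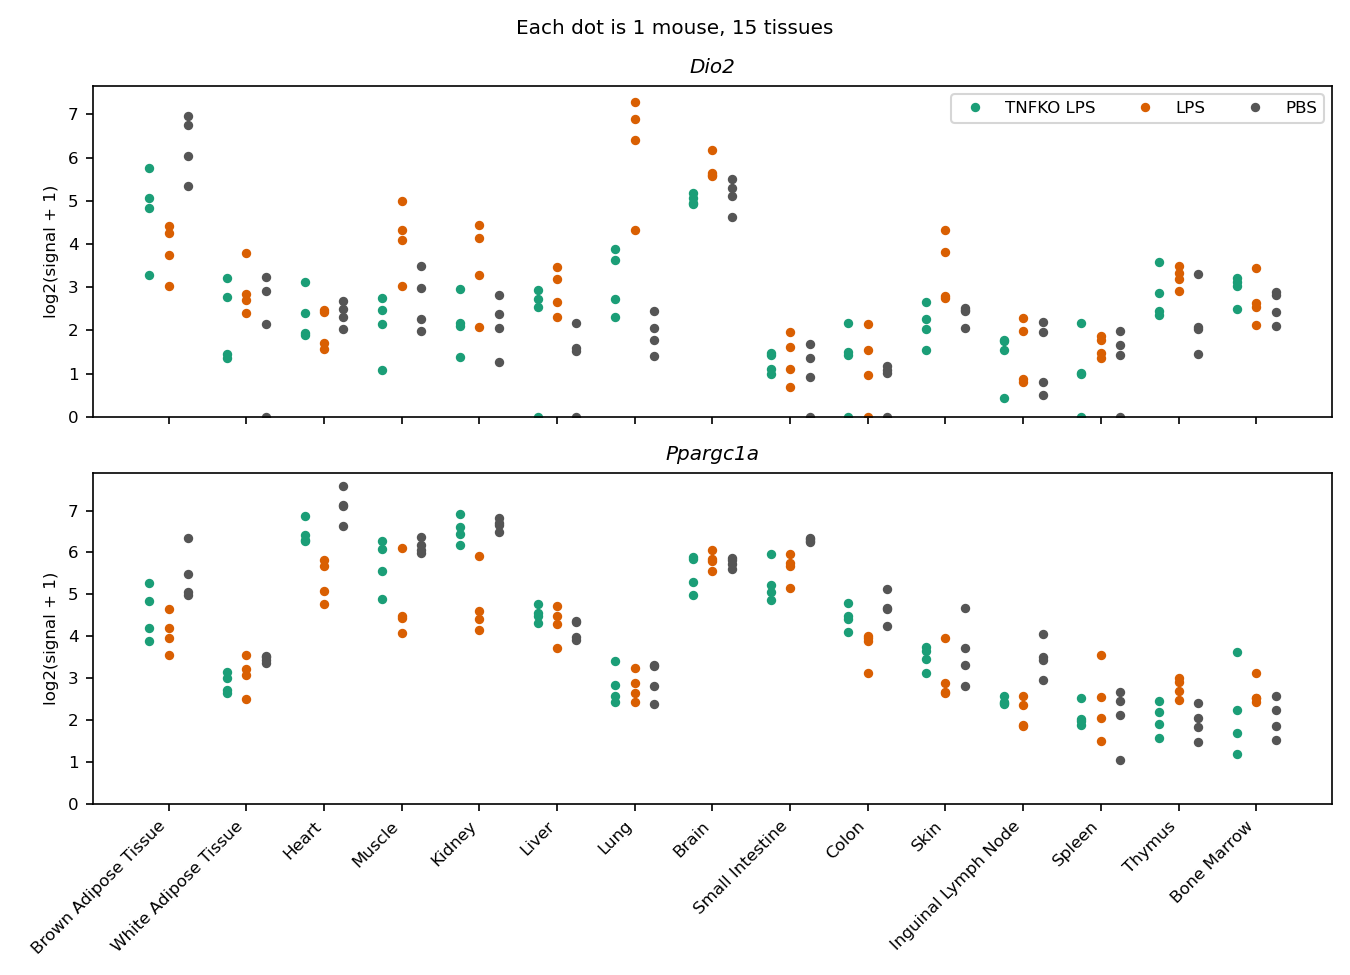
Log2(signal + 1) (vertical axes) of Dio2 and Ppargc1a in 15 tissues of TNFKO LPS, LPS and PBS mice, 1 dot per mouse. Dio2 of LPS mice is lowest of the 3 groups by mean in brown fat (14.5) and highest in lung (94.1), while Ppargc1a of LPS mice is lowest by mean in brown fat, heart, kidney and muscle.

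Ppargc1a, in contrast, fell with LPS in 6 of the 13 other tissues: heart, kidney, muscle, small intestine, colon and inguinal lymph node. In heart, where it is most abundant and 22.2% of genes passed, it had 50.6, 55.8, 32.7 and 26.2 in LPS mice, against 137, 139.7, 190 and 98.4 in PBS mice (log2 -1.78, SE 0.19, limma adjusted p 4.32e-08). TNFKO LPS hearts had 76.6, 78.1, 116 and 85.2, above every LPS heart (log2 1.13, SE 0.19, adjusted p 0.000350; 5.67% of genes passed). Against PBS hearts they were at -0.64 (adjusted p 0.0233; 13.5% of genes passed), a call lost without mouse 1, 2, 3, 9, 10 or 12 and with a fixed sum per library (adjusted p 0.0660). In kidney, where 38% of genes passed for LPS against PBS and 20% for TNFKO LPS against LPS, it had 71.0, 85.4, 119 and 96.6 in TNFKO LPS mice. LPS kidneys had 23.3, 59.6, 16.9 and 20.3, and PBS kidneys 99.1, 104, 113 and 88.3. LPS kidneys lay below both other groups, by 1.76 on the log2 scale against TNFKO LPS (SE 0.24, adjusted p 6.91e-06) and by 1.89 against PBS mice (SE 0.24, adjusted p 3.81e-07). TNFKO LPS and PBS kidneys overlapped. The macrophage and neutrophil marker sum was 662 to 873 in TNFKO LPS, 1585 to 2240 in LPS and 479 to 598 in PBS kidneys, and its part in this result was not tested.

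In muscle (12.5% of genes passed) Ppargc1a averaged 31.5 ± 24.5 in LPS and 70.1 ± 8.64 in PBS mice (log2 -1.37, SE 0.29, limma adjusted p 0.00100), with 1 LPS library, mouse 7, at 68.0 and the other 3 at 15.8 to 21.5. DESeq2 did not call it (adjusted p 0.0861). In small intestine the change was -0.67 (49.5 ± 10.96 in LPS, 77.6 ± 2.00 in PBS mice), in colon -0.93 (12.7 ± 3.37 in LPS, 25.04 ± 6.49 in PBS mice) and in inguinal lymph node -1.32 (3.59 ± 1.16 in LPS, 10.6 ± 3.73 in PBS mice). Of all genes, 23.3% passed in small intestine, 17.2% in colon and 22.5% in the nodes. Without mice 7 and 8 the calls in small intestine (adjusted p 0.0594; also lost without mouse 7) and colon (adjusted p 0.0981) were lost. In none of these 3 tissues, nor in muscle, did Ppargc1a pass between TNFKO LPS and LPS mice. The nodes also lay below PBS in TNFKO LPS mice (4.45 ± 0.340, log2 -1.04, adjusted p 0.00766), as did the small intestine (39.6 ± 15.2, log2 -1.02, adjusted p 0.000625), with 14.2% and 15.7% of genes passing.

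The other members moved in few tissues. Kng2 was lower in inguinal lymph node in LPS mice (4.34 to 7.56) than in PBS mice (12.1 to 30.5; log2 -1.68, SE 0.26, limma adjusted p 7.29e-05) and lower than PBS in TNFKO LPS mice too (5.71 to 9.13; log2 -1.46, adjusted p 0.000428). The change with LPS differed between brown fat and these nodes by 2.30 (SE 0.32, adjusted p 2.01e-05; 9.75% of genes passed). This pair, too, was chosen after opposite calls were seen. Kng2 was also called in brain, higher in LPS than in PBS mice (log2 1.03, adjusted p 0.0138; lost without mouse 3, 6 or 8 and without mice 7 and 8 together, adjusted p 0.131), where Kng1 rose as well (log2 1.38, adjusted p 0.000386), and in bone marrow, higher in TNFKO LPS than in PBS mice (log2 0.76, adjusted p 0.0371; lost without mouse 1, 2, 3, 4, 10 or 11; 20.9% of genes passed). In liver and kidney, where Kng2 is highest, it did not pass in any of the comparisons. Elovl3 in liver, where 25.2% of genes passed, was 3.60 ± 1.59 in LPS and 12.3 ± 1.99 in PBS mice (log2 -1.61, SE 0.44, adjusted p 0.00603), a call lost without mice 7 and 8 (adjusted p 0.0661). These values rest on 1 to 4 counts in an LPS library and 5 to 8 in a PBS library. In TNFKO LPS livers Elovl3 was 2.16 ± 0.561, on 1 to 2 counts a library, also below PBS mice (log2 -2.08, adjusted p 0.000776). In inguinal lymph node of TNFKO LPS mice it was above PBS mice at very low levels (3.39 ± 2.71 against 0.604 ± 0.517, adjusted p 0.0210; lost without mouse 3, 4, 11 or 12). Adrb3 ran from 2.67 to 19.5 in TNFKO LPS and from 1.69 to 9.79 in PBS nodes. Cidea ran from 1.52 to 9.90 in TNFKO LPS and from 1.69 to 9.79 in PBS nodes. The part of fat around the nodes in the Elovl3 result was not tested.

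Ucp1 and Cidea were lower in LPS than in PBS kidneys, and in TNFKO LPS than in PBS kidneys, where 17.3% of genes passed. Ucp1 was 41.3 ± 10.5 in LPS and 79.6 ± 8.27 in PBS kidneys (log2 -0.95, SE 0.15, limma adjusted p 1.67e-05), and Cidea 7.18 ± 0.849 in LPS and 16.1 ± 4.59 in PBS kidneys (log2 -1.02, SE 0.28, adjusted p 0.00506). In TNFKO LPS kidneys they averaged 47.2 ± 7.74 (Ucp1, log2 -0.75 against PBS, adjusted p 0.000763) and 6.79 ± 3.48 (Cidea, log2 -1.19, adjusted p 0.00319). The general adipocyte marker sum moved with them, at 1780 to 2133 in TNFKO LPS, 1686 to 2021 in LPS and 2442 to 3153 in PBS kidneys, and its part in this result was not tested. In PBS mice the kidney Ucp1 mean was 0.769% of that in brown fat. Summed hepatocyte markers were 0.485% to 0.684% of PBS liver in TNFKO LPS, 0.708% to 0.885% in LPS and 0.329% to 0.370% in PBS kidneys. Muscle fibre markers were 0.392% to 0.451% of PBS muscle in TNFKO LPS, 0.405% to 0.540% in LPS and 0.414% to 0.467% in PBS kidneys. Whether signals this low come from kidney cells was not tested. Adrb3 passed in none of the 13 tissues outside fat in any comparison with limma, edgeR or DESeq2, although 1 had an unadjusted p under 0.05 for each of TNFKO LPS against LPS and against PBS. Otop1 had enough signal to be tested in 7 of them and passed in none, with 0 unadjusted p-values under 0.05 and 0 calls by the other tools.

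Across the 45 group means (15 tissues in 3 conditions), the members formed a closely tracking set and a loose one, as a description. Ucp1 tracked Otop1 (Pearson r 0.956), Cidea (0.909), Elovl3 (0.881) and Adrb3 (0.846), while its r was 0.412 with Dio2, 0.369 with Kng2 and 0.127 with Ppargc1a. Groups of 1 tissue share cell types and groups of 1 condition share mice, and 3 of the 45 means are brown fat. Among genes other than the members with a mean signal of at least 10 in some group, the gene most like Ucp1 was Letmd1 (r 0.906), the gene most like Adrb3 was Plin1 (0.962), and for both Otop1 and Cidea it was Lncbate1 (0.902 and 0.901). For Kng2 it was Slc27a2 (0.937), for Ppargc1a Ndufaf2 (0.880), for Elovl3 Ormdl3 (0.842) and for Dio2 Gprc5b (0.705).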

How the data were processed

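Whole-tissue poly(A) RNA was reverse transcribed from the 3' end with a sample barcode and a molecular identifier, per the labels' protocols; whether identifiers were collapsed is not stated there. The authors deposited signal values per gene, which resemble CPM but sum to 703690 to 1603067 per library, scaled to effective library sizes. The submitters' processing notes name FastQC, MultiQC, edgeR and mm10; which aligner was used is not given in these sources. All values were whole multiples of 1 count within 0.1, so whole counts (311128 to 2573806 per library) were recovered for edgeR and DESeq2; for 9 libraries this was found on the gene rows alone, since the row of mouse numbers hides the step from an automatic test. Replicate pairs (270) all differed by more than counting error (lowest chi-squared per degree of freedom 1.18).

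A gene entered the test in a tissue if 4 or more of its 12 libraries had a signal of 1 or more. Tests were run on log2(signal + 1) with limma 3.58.1 (trend, R 4.3.3), 3 groups per fit, with Benjamini-Hochberg adjustment per tissue and comparison; fold changes on this scale understate those of low genes. Otop1 failed this filter in 6 tissues and Elovl3 in 1. Differences between tissues came from joint fits; the same mice gave both tissues, and same-mouse deviations in brown and white fat correlated at -0.026 to 0.246. Alternatives were another pseudocount (0.25), no filter, 2 other scalings, edgeR 4.0.16, DESeq2 1.42.0, 2 groups alone, each mouse left out, LPS mice 7 and 8 left out, and mouse as a block. Statistics were tested on simulated data. Positions are from GENCODE M21 and promoter windows from RefSeq, where 5 of the 8 members had an entry. Named genes were the members, per list the largest changes past the threshold with a mean of at least 10, the most similar genes by correlation, Kng1 and Tnf; a few list genes are named as the ones behind a count. A gene that this rule selects is not reported here. Members and lists were chosen with earlier results of these data known. Within a tissue each library is a separate mouse, so those p-values measure the spread between mice. Joint fits of 2 tissues hold 2 libraries of each mouse, treated as independent except with mouse as a block.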

Additional observations from a re-analysis of the deposited data

Results flagged for a closer look

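In 102 groups of 4 mice examined for a library far from the other 3, 4 were found, and chance gives about 1 in 20 groups. These were Dio2 in brain of LPS mouse 5 (71.7, the others 46.8 to 49.3), and Ppargc1a in colon of LPS mouse 8 (7.74, the others 13.8 to 14.9), in kidney of LPS mouse 6 (59.6, the others 16.9 to 23.3) and in muscle of LPS mouse 7 (68.0, the others 15.8 to 21.5).

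The change with LPS was compared between brown fat and white fat, or a tissue with the opposite call for the same gene. It differed for 2 genes, by limma's test of the difference. For Dio2 the brown fat change minus the other was -6.72 for lung, -3.84 for muscle, -3.76 for kidney, -3.45 for skin, -3.28 for white fat and -3.04 for brain on the log2 scale. For Kng2 it was 2.30 against inguinal lymph node (SE 0.32, adjusted p 2.01e-05), with Kng2 higher in LPS than in PBS brown fat and lower in LPS than in PBS nodes. Except for white fat, these pairs are given because the calls in the 2 tissues went in opposite directions, so a pass was likely beforehand. Pairs of brown fat with the remaining tissues are not given, and other members may differ there.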

How the results depend on the processing

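Of 60 results for single genes that passed, 34 kept their direction and call in every alternative. PBS mouse 1 has the lowest brown fat depth, and the precision of genes with few counts there is limited. The cause of the changes below was not tested, and a fit with mice left out also has fewer mice.

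In brown fat, edgeR called 815 genes between TNFKO LPS and LPS mice, against 398 with limma, and leaving out 1 mouse gave 193 to 637. Leaving out 1 mouse gave 2 to 6 members between TNFKO LPS and PBS mice. In white fat, 2 members passed for LPS against PBS with a fixed sum per library and with edgeR (1 to 2 with 1 mouse left out), and 1 for TNFKO LPS against LPS with a pseudocount of 0.25 and with no filter (1 to 3 with 1 mouse left out, on 173 to 641 genes), and 1 to 2 for TNFKO LPS against PBS. Without mice 7 and 8, genes called were 1494 and 107 in brown fat and 968 and 43 in white fat (LPS against PBS, then TNFKO LPS against LPS), and 1 white fat member passed in the second. Scaling to a fixed sum per library moved the higher share of white fat calls from 54.5% to 32.8% for LPS against PBS, with a shift of -0.16 in the median of all genes, and from 27.6% to 57.1% for TNFKO LPS against LPS, with one of 0.11. In brown fat edgeR moved that share from 58.0% to 44.3% for TNFKO LPS against LPS.

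For the difference between brown and white fat, mouse as a replicate block gave 2 members and 693 genes for LPS against PBS, against 1 and 565, and changed no other call. A fixed sum per library gave 2 members and 862 genes, and leaving out 1 mouse 1 to 2 and 338 to 623. For TNFKO LPS against LPS, where limma called 28 genes, a fixed sum per library gave 43, edgeR 45 and leaving out 1 mouse 10 to 50. Without mice 7 and 8 0 members and 132 genes passed for LPS against PBS, and 1 gene for TNFKO LPS against LPS.

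The differences that turned in sign had not passed. In white fat, Dio2 for TNFKO LPS against PBS turned to -0.22 with edgeR, -0.13 with DESeq2 and ranged from -0.57 to 0.51 with 1 mouse left out. Without mice 7 and 8, Ucp1 turned to 0.034 for LPS against PBS and Kng2 to -0.11 for TNFKO LPS against LPS in white fat, and Ucp1 to -0.22 in brown fat. With 1 mouse left out, white fat ranges were -0.54 to 0.14 for Cidea and -0.34 to 0.20 for Ucp1 (LPS against PBS), -0.067 to 0.38 for Kng2 (TNFKO LPS against LPS) and -0.58 to 0.13 for Otop1 (TNFKO LPS against PBS). Kng2 in brown fat ranged from -0.16 to 0.071 (TNFKO LPS against LPS). Differences between the fats ranged from -0.095 to 0.48 for Adrb3 (-0.025 with a fixed sum per library), -0.48 to 0.082 for Kng2 (both TNFKO LPS against LPS) and -0.70 to 0.17 for Elovl3 (LPS against PBS).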
